A study of Gallus gallus with 12 samples.

Results

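TPM1, TPM2, TPM3 and CALD1 encode 3 tropomyosins and caldesmon, proteins that lie along the actin filament. They were taken from the deposited count table by gene symbol, 4 of its 17138 genes, and each was described in 3 layers of the chick gut wall. The embryos were incubated at 38 °C, received RCAS, a chicken retrovirus, by electroporation into the splanchnic mesoderm at stage HH17, and were taken at embryonic day 14. There were 3 groups of 4 samples: midgut carrying RCAS-mGFP (a fluorescent protein, the control), midgut carrying RCAS-Hoxd13 (called Hoxd13 midgut below) and hindgut carrying RCAS-mGFP. All 12 samples thus carried a virus, and the labels place its delivery at midgut level for the hindgut samples too. The sources used here do not give the share of infected cells or say that replicates come from different embryos, so p-values measure only the spread between these samples.

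Tropomyosins are coiled-coil dimers that polymerise head to tail along actin and set which myosins and other binding proteins can reach it. TPM1 and TPM2 give the main tropomyosins of smooth muscle and, through other promoters and exons, shorter forms of non-muscle cells. TPM3 is best known for slow skeletal muscle and for the cytoplasmic forms that most cells use. Caldesmon binds actin, myosin and tropomyosin and inhibits the actin-activated ATPase of myosin, and CALD1 is spliced into a heavy form of differentiated smooth muscle and a light form of other cells. The count table has 1 row per gene, so muscle and non-muscle forms of a gene are summed in every value below. The tropomyosin genes are also similar in sequence, and the sources used here do not say how reads shared between them were counted, so the split between them is uncertain. TPM2 lies on the Z chromosome, which male birds (ZZ) carry in a pair and female birds (ZW) singly, and which is incompletely dosage compensated in birds. TPM1, TPM3 and CALD1 are autosomal.

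Counts were obtained by Light-seq, in which cDNA made in place in a tissue section is barcoded with light in chosen regions and then sequenced. The mesenchyme under the epithelium held 210803 to 903222 counts per sample, the inner longitudinal muscle 11233 to 49535 and the circumferential muscle, taken at its inner face, 19920 to 112252. HOXD13, the misexpressed gene, had 155 to 238 counts in each Hoxd13 midgut mesenchyme, 0 in each midgut and 1 to 8 in each hindgut. Smooth muscle markers summed higher in the circumferential muscle than in the same sample's mesenchyme in 11 of 12 samples, but in the longitudinal muscle in 7 of 12 only. The summed counts of 3 W-linked genes, as CPM (counts scaled to a common library size), were 0 to 3.25 in midgut mesenchyme, 122 to 162 in Hoxd13 midgut and 104 to 156 in hindgut replicates 2 to 4. Hindgut replicate 1, the deepest library, stood apart at 37.6 CPM. Z-linked genes took 2.31% of its non-mitochondrial counts, against 2.15 to 2.33% in midgut, 1.52 to 1.65% in Hoxd13 midgut and 1.41 to 1.71% in the other hindgut samples. Its epithelial markers summed to 3030 CPM, against 856 to 1057 CPM in those. Differences between hindgut and the other groups are therefore given with and without this sample, while layer differences within hindgut were fitted with it only. The sex-linked difference runs along with the difference between midgut and Hoxd13 midgut, so sex and Hoxd13 cannot be told apart in that comparison, for a Z-linked gene above all. The same holds for hindgut against midgut without hindgut replicate 1: all 3 remaining hindgut samples carried W-linked counts, the Z-linked median was -0.36 against -0.01 for autosomal genes, and sex and gut region cannot be told apart. With all samples that median was -0.22 against -0.01, and every hindgut sample had more W-linked CPM than any midgut sample. Sex and gut region were therefore not separated there either. Mitochondrial genes took 38 to 40% of the mesenchyme counts in Hoxd13 midgut, 33.3 to 36.6% in midgut and 25.5 to 33.2% in hindgut.

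In the mesenchyme, CALD1 was about 2.11-fold higher in hindgut than in midgut, TPM1 was 1.52-fold higher in Hoxd13 midgut than in midgut, and TPM2 was 1.70-fold higher in hindgut than in Hoxd13 midgut. Each was the 1 member of 4 with an adjusted p under 0.05 in its comparison (called, below). Of all 4176 genes tested, 1.48% were called between hindgut and midgut, 2.66% between Hoxd13 midgut and midgut and 3.78% between hindgut and Hoxd13 midgut. TPM3 passed in none of the 3. The groups compared share samples (midgut is the control of both hindgut and Hoxd13 midgut), so the 3 comparisons are not independent.

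**Figure D1:**
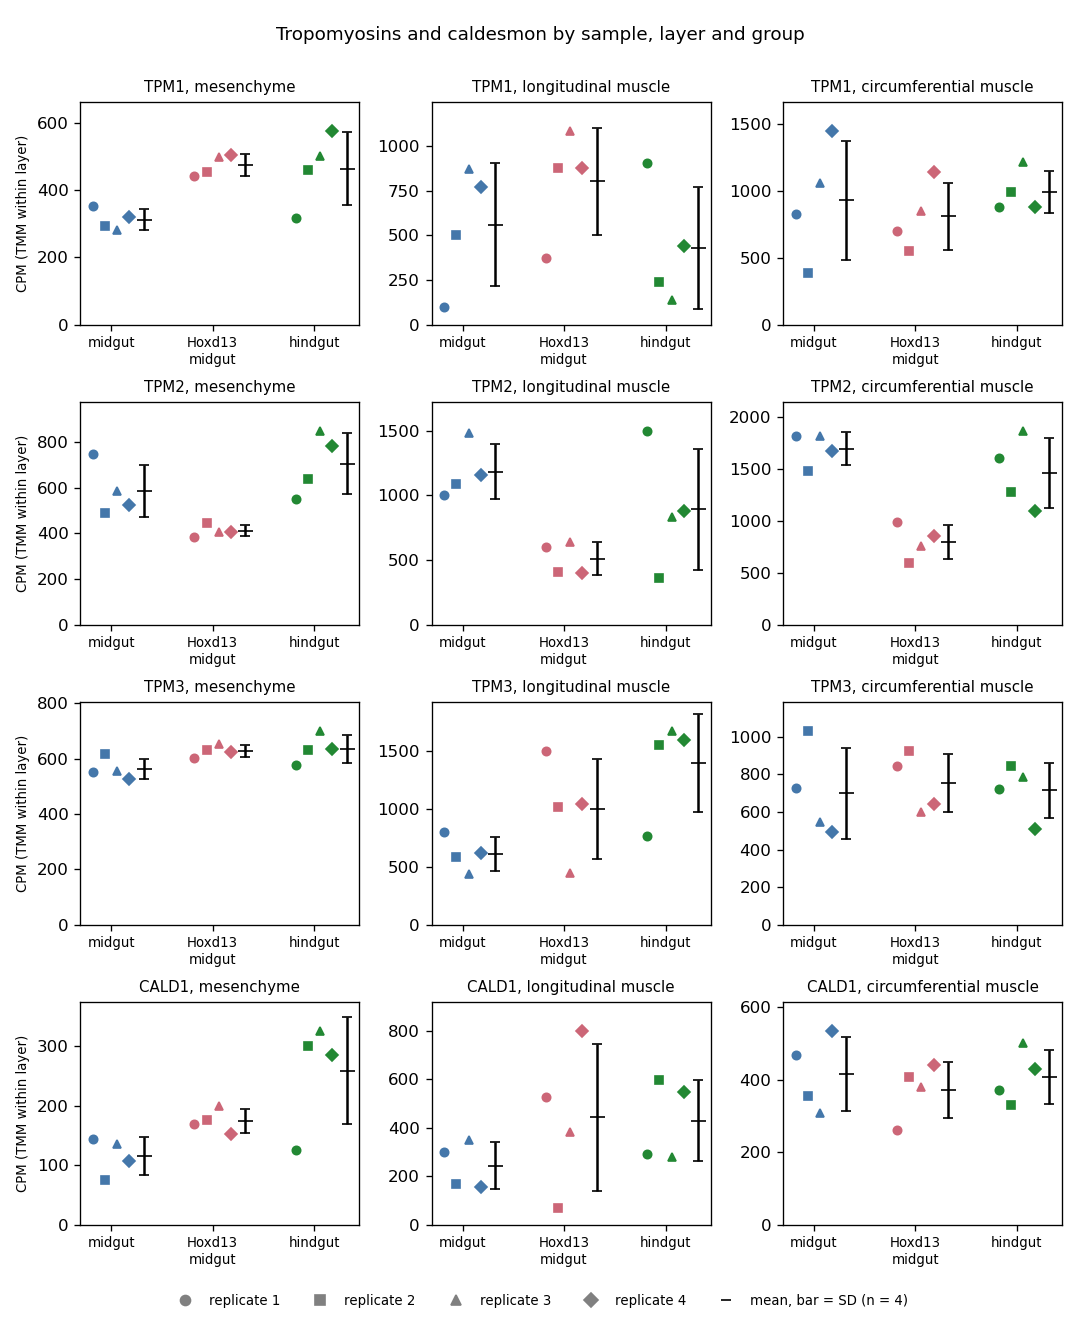
Level of each gene (rows) in CPM scaled with TMM factors within a layer (y axis, from 0), by layer (columns) and group (x axis); symbols are samples, and the black mark and bar are the mean and SD of 4. In the mesenchyme, TPM2 of the 4 Hoxd13 midgut samples lies at 386 to 445 CPM, below all other samples of that layer, and CALD1 of hindgut replicate 1 lies at 125 CPM, apart from the other 3.

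TPM1 in the mesenchyme measured 351, 294, 281 and 319 CPM in midgut replicates 1 to 4, a mean of 311 ± 30.9 (SD, n = 4). In Hoxd13 midgut it measured 440, 454, 497 and 505 CPM (474 ± 31.7), and in hindgut 318, 460, 502 and 574 CPM (463 ± 108). Every Hoxd13 midgut sample lay above every midgut sample, and so did 3 of 4 hindgut samples, all but replicate 1. The log2 difference was 0.60 ± 0.16 (SE) between Hoxd13 midgut and midgut (edgeR quasi-likelihood test, adjusted p = 0.043). Between hindgut and midgut it was 0.55 ± 0.16, with an adjusted p of 0.080, and between hindgut and Hoxd13 midgut -0.05 ± 0.16 (95% interval -0.36 to 0.26). The Hoxd13 call was narrow: it held in 3 of 12 fits that left out 1 sample, with adjusted p from 0.00029 to 0.14. The fit without hindgut replicate 1 was among those 3, and in it 7.52% of genes were called between Hoxd13 midgut and midgut. The call was lost in DESeq2 (adjusted p = 0.099) and with total-count scaling (log2 difference 0.39, adjusted p = 0.26, with the median of all genes at -0.20). Without hindgut replicate 1, TPM1 was 0.72 ± 0.12 higher in hindgut than in midgut (adjusted p = 1.0e-05). In that fit 19.6% of 4214 genes were called in the same comparison, so the number of calls was larger across the table. Against Hoxd13 midgut, TPM1 of hindgut turned to 0.14 without that sample and did not pass.

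TPM2 in the mesenchyme measured 746, 489, 586 and 524 CPM in midgut (586 ± 114) and 386, 445, 406 and 407 CPM in Hoxd13 midgut (411 ± 24.5). In hindgut it measured 552, 638, 846 and 782 CPM (704 ± 134). The Hoxd13 midgut samples lay below every sample of the other groups, while hindgut and midgut overlapped. TPM2 was higher in hindgut than in Hoxd13 midgut by 0.77 ± 0.15 on the log2 scale (adjusted p = 0.0096). The call held in 12 of 12 fits that left out a sample, with differences of 0.68 to 0.89. Against midgut, TPM2 of Hoxd13 midgut differed by -0.52 ± 0.15 (adjusted p = 0.077) and TPM2 of hindgut by 0.25 ± 0.15 (adjusted p = 0.50), neither past the threshold. Without hindgut replicate 1 these were -0.53 ± 0.12 (adjusted p = 0.0018) and 0.35 ± 0.12 (adjusted p = 0.036), and hindgut exceeded Hoxd13 midgut by 0.89 ± 0.13 (adjusted p = 6.6e-07). The Hoxd13 difference also passed when only the groups compared were fitted (-0.55, adjusted p = 0.000295) and with total-count scaling (-0.72, adjusted p = 0.022, with the median of all genes at -0.20), and had an adjusted p of 0.14 in DESeq2.

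Of the 4 genes, 3 had Hoxd13 midgut samples that did not overlap midgut, TPM1 and CALD1 higher and TPM2 lower, against 13.5% of all genes tested in the mesenchyme in either direction. Between hindgut and midgut 0 of the 4 were free of overlap, against 2.97% of genes, and between hindgut and Hoxd13 midgut 1, TPM2, against 10.1%.

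Set beside other Z-linked genes, TPM2 took a different rank in each comparison. Of 127 Z-linked genes tested in the mesenchyme, the median log2 difference between Hoxd13 midgut and midgut was -0.37, against 0.01 for autosomal genes, and TPM2 at -0.52 differed from that median by -0.14. In this comparison 48 Z-linked genes had a lower value than TPM2 and 78 a higher one, so its value lay within the middle range of the chromosome. Between hindgut and midgut the Z-linked median was -0.22, and TPM2 at 0.25 lay 0.47 above it, with 112 Z-linked genes lower and 14 higher. Between hindgut and Hoxd13 midgut the Z-linked median was 0.18 and TPM2 at 0.77 lay 0.59 above it, with 119 lower and 7 higher. Without hindgut replicate 1 the Z-linked median of this last comparison was -0.02, near the autosomal -0.02, while TPM2 stood at 0.89, above 118 of the 125 Z-linked genes tested. These ranks are descriptions and no test of TPM2 against the chromosome was made.

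**Figure D2:**
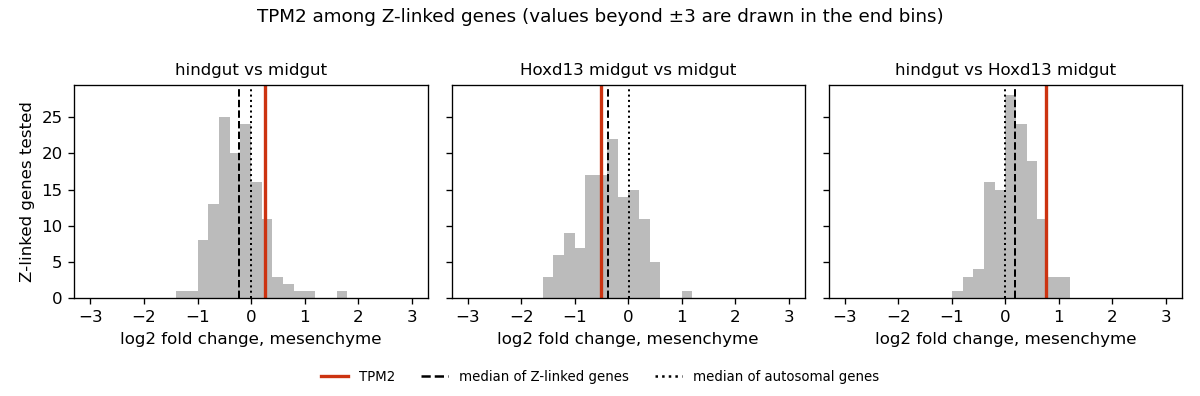
Number of Z-linked genes tested (y axis) by log2 difference in the mesenchyme (x axis) in the 3 comparisons; the red line is TPM2, the dashed line the median of the Z-linked genes and the dotted line that of autosomal genes. TPM2 lies near the Z-linked median, at -0.52 against -0.37, between Hoxd13 midgut and midgut, and towards the upper end, at 0.77 against 0.18, between hindgut and Hoxd13 midgut.

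TPM3 did not pass in any comparison of the mesenchyme. It measured 553, 615, 555 and 526 CPM in midgut, 603, 630, 653 and 624 CPM in Hoxd13 midgut and 577, 632, 698 and 633 CPM in hindgut. The groups overlapped throughout. The log2 difference from midgut was 0.16 ± 0.12 in Hoxd13 midgut (adjusted p = 0.52, 95% interval -0.08 to 0.39) and 0.17 ± 0.12 in hindgut (adjusted p = 0.59, 95% interval -0.07 to 0.40). Hindgut and Hoxd13 midgut differed by 0.01 ± 0.12. Leaving out hindgut replicate 1, the hindgut differences were 0.21 (adjusted p = 0.21) from midgut and 0.063 (adjusted p = 0.76) from Hoxd13 midgut. With total-count scaling the Hoxd13 value turned to -0.05, with the median of all genes at -0.20.

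CALD1 in the mesenchyme measured 144, 75.2, 135 and 106 CPM in midgut (115 ± 31.3), 169, 175, 200 and 152 CPM in Hoxd13 midgut (174 ± 19.7) and 125, 300, 325 and 286 CPM in hindgut (259 ± 90.4). Every Hoxd13 midgut sample exceeded every midgut sample, and so did hindgut replicates 2 to 4, which lay above both other groups. Replicate 1 of hindgut fell within the midgut range. CALD1 was higher in hindgut than in midgut by 1.08 ± 0.25 on the log2 scale (adjusted p = 0.030). The call held in 6 of 12 fits that left out a sample, with differences of 0.92 to 1.35 and adjusted p up to 0.13, and it was lost when only hindgut and midgut were fitted (adjusted p = 0.15). Without hindgut replicate 1 the difference was 1.35 ± 0.17 (adjusted p = 1.7e-08). Hoxd13 midgut differed from midgut by 0.57 ± 0.26 (adjusted p = 0.25) and hindgut from Hoxd13 midgut by 0.50 ± 0.24 (adjusted p = 0.28). Without hindgut replicate 1 both passed, at 0.55 ± 0.17 (adjusted p = 0.032) and 0.80 ± 0.16 (adjusted p = 0.00028), and 7.52% and 14.9% of genes were called in these comparisons.

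Marker sums of several cell types also differed between the groups in the mesenchyme. The sums use total counts. With that scaling the median log2 difference of all genes was -0.20 between Hoxd13 midgut and midgut and 0.25 between hindgut and Hoxd13 midgut. With TMM it was 0.01 in each. Comparisons of sums with Hoxd13 midgut, and their lack of overlap, may thus partly reflect scaling, which was not tested. The 10 markers (ACTG2, MYH11, DES, CNN1, MYLK, LMOD1, SYNPO2, SMTN, TAGLN and MYL9, all detected in each group, and all but DES also in the thin filament list below) summed to 3941 to 6132 CPM of total counts in midgut mesenchyme. They summed to 4948 to 5896 CPM in Hoxd13 midgut, within the midgut range, and to 6498 to 12663 CPM in hindgut, above both. Of the 10, 4 were called higher in hindgut than in midgut and 2 in Hoxd13 midgut than in midgut, with all samples. Of all genes tested, 1.48% and 2.66% were called in these comparisons in either direction. The 8 fibroblast markers summed to 11242 to 14384 CPM in Hoxd13 midgut, below the 15463 to 18089 CPM of midgut and the 17362 to 20556 CPM of hindgut. Pericyte markers, in the same order of midgut, Hoxd13 midgut and hindgut, summed to 135 to 168, 97.3 to 116 and 200.4 to 370 CPM, and erythroid markers to 176 to 333, 113 to 159 and 423 to 755 CPM, with no overlap between any of the groups. Markers of enteric neurons and glia summed to 339 to 384 CPM in midgut and 238 to 288 CPM in Hoxd13 midgut, without overlap, and to 237 to 412 CPM in hindgut. Endothelial markers summed to 119 to 196 CPM in hindgut, the lowest just above the highest of midgut, at 94.4 to 119 CPM. Of 8 epithelial markers tested between hindgut and midgut, 0 had a positive difference and 1 was called lower, against 1.48% of all genes called, with a median of -0.70. The part of cell composition in the differences of the 4 genes was not tested. In tissue regions, fewer cells of a type and less RNA per cell cannot be told apart. With mitochondrial genes removed before scaling, TPM1 of Hoxd13 midgut was 0.58 above midgut (adjusted p = 0.049), CALD1 of hindgut 1.07 above midgut (adjusted p = 0.034) and TPM2 of hindgut 0.78 above Hoxd13 midgut (adjusted p = 0.0095).

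**Figure D3:**
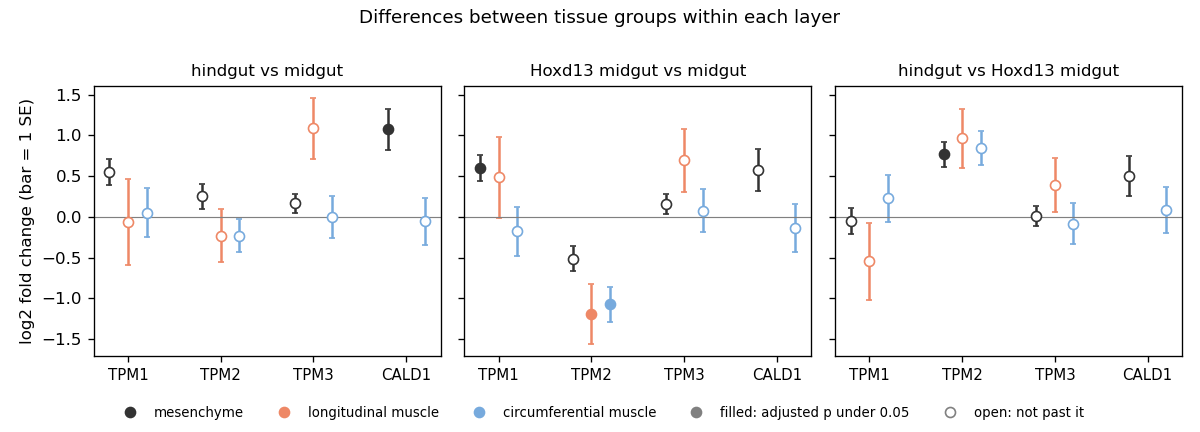
Log2 fold change between groups (y axis, bars 1 SE) of each gene (x axis) in 3 comparisons and 3 layers; filled points have an adjusted p under 0.05. TPM2 is below 0 in the 3 layers between Hoxd13 midgut and midgut (-0.52, -1.19 and -1.07) and above 0 in them between hindgut and Hoxd13 midgut (0.77, 0.96 and 0.84); CALD1 was not tested in the longitudinal muscle.

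Other proteins of the thin filament and the contractile apparatus were counted from a list of 49 genes, of which 42 are in the table and 28 were tested in the mesenchyme. Of these, 5 were higher and 1 lower in hindgut than in midgut. TAGLN, which encodes the actin-binding protein transgelin, rose by 1.51 ± 0.23 on the log2 scale (adjusted p = 0.0014), and the alpha-actin gene ACTA1 by 1.62 ± 0.28 (adjusted p = 0.0035). The myosin light chain genes MYL9 and MYL6 each rose by 1.02 (adjusted p = 0.0085 and 0.014) and the smooth muscle gamma-actin gene ACTG2 by 0.93 (adjusted p = 0.022). MYH9, the non-muscle myosin heavy chain, was lower, with a log2 difference of -0.68 (adjusted p = 0.033). The median of the 28 genes was 0.34, against 0.00 for all genes. Between Hoxd13 midgut and midgut 3 rose and 0 fell, with a median of 0.30 against 0.01. They were TAGLN (0.98, adjusted p = 0.026), MYL9 (0.79, adjusted p = 0.031) and PFN2, an actin-monomer-binding profilin (0.55, adjusted p = 0.043). Between hindgut and Hoxd13 midgut 2 were higher and 2 lower, with a median of -0.03 against 0.01. ACTG2 (0.89, adjusted p = 0.020) and the leiomodin gene LMOD1 (1.501, adjusted p = 0.048) were higher in hindgut, and MYH9 (-0.74, adjusted p = 0.014) and the calponin gene CNN3 (-0.57, adjusted p = 0.040) lower. With hindgut replicate 1 left out the counts were 13 higher and 2 lower, 7 higher and 0 lower, and 11 higher and 4 lower, in the same order of comparisons. Of all genes tested, 1.48%, 2.66% and 3.78% were called in these comparisons with all samples. Without hindgut replicate 1 the shares were 19.6%, 7.52% and 14.9%, so calls were more frequent across the table.

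Tropomyosin and caldesmon genes are known targets of serum response factor (SRF), some of whose cofactors respond to actin assembly downstream of RHOA. A list of 12 gene symbols around SRF held SRF, its regulators, and VCL, CNN1 and FHL2. MKL1 and MKL2, older names of MRTFA and MRTFB, were entered apart, so the symbols stand for fewer genes. Of the 12, 9 are in the table and 7 were tested in the mesenchyme. RHOA, the small GTPase, was 0.60 ± 0.13 higher in Hoxd13 midgut than in midgut (adjusted p = 0.012) and lower in hindgut than in Hoxd13 midgut (log2 difference -0.49 ± 0.13, adjusted p = 0.034). It was the 1 gene of the list called in each of these comparisons, against 2.66% and 3.78% of all genes tested. Between hindgut and Hoxd13 midgut DESeq2 called 0 of the 7, so the second call was lost there. For hindgut against midgut edgeR called 0 of the 7, with 3 at an unadjusted p under 0.05 and 1 called by DESeq2. With all samples 1.48% of all genes tested were called between hindgut and midgut. With hindgut replicate 1 left out, edgeR called 3 of the list in that comparison, against 19.6% of all genes tested. Between hindgut and Hoxd13 midgut it then called 2 of the 7 higher and 1 lower, against 14.9% of all genes tested.

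In the longitudinal muscle, TPM2 was the 1 of 3 members tested that was called with all samples. It stood at 0.44-fold of the midgut level in Hoxd13 midgut. TPM2 measured 1003, 1088, 1484 and 1154 CPM in midgut, 600, 405, 637 and 399 CPM in Hoxd13 midgut and 1493, 358, 833 and 879 CPM in hindgut. All 4 Hoxd13 midgut samples lay below all midgut samples, and the hindgut samples spanned both ranges. These levels rest on few counts, 5 to 10 per Hoxd13 midgut sample, 10 to 17 per midgut sample and 3 to 51 per hindgut sample. The log2 difference between Hoxd13 midgut and midgut was -1.19 ± 0.37 (adjusted p = 0.026), when 11.8% of the 144 genes tested in this layer were called. TPM2 was the 1 of 3 members tested whose groups did not overlap in that comparison, as was the case for 20.8% of genes. The call held in 10 of 12 fits that left out a sample and failed without midgut replicate 3 (adjusted p = 0.073) or midgut replicate 4 (adjusted p = 0.056). It was also lost without the low-count filter, when TPM2 differed by -1.06 (adjusted p = 0.61). TPM2 reached the level asked by that filter in every midgut sample but in no Hoxd13 midgut sample. It was thus tested because it was high outside Hoxd13 midgut, and the call is not free of that selection. Between hindgut and midgut TPM2 differed by -0.23 ± 0.33, and by -0.64 (adjusted p = 0.24) without hindgut replicate 1.

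Between hindgut and Hoxd13 midgut TPM2 of the longitudinal muscle differed by 0.96 ± 0.36 (adjusted p = 0.088). edgeR called 0 of 3 members there, with 1 at an unadjusted p under 0.05 and 0 called by DESeq2, against 9.72% of genes called and 12.5% without overlap. With total-count scaling the difference was 1.46 (adjusted p = 0.014), with the median of all genes at 0.56, without hindgut replicate 2 it was 1.22 (adjusted p = 0.024), and without hindgut replicate 1 it was 0.75 (adjusted p = 0.20).

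TPM3 of the longitudinal muscle measured 803, 586, 437 and 615 CPM in midgut, 1500, 1012, 446 and 1037 CPM in Hoxd13 midgut and 761, 1552, 1666 and 1594 CPM in hindgut. Hindgut replicates 2 to 4 lay above all midgut samples, and replicate 1 among them. The log2 difference between hindgut and midgut was 1.09 ± 0.37 (adjusted p = 0.12), and without hindgut replicate 1 it was 1.44 ± 0.36 (adjusted p = 0.015). In the fit without that sample 9.3% of the 129 genes tested were called between hindgut and midgut. From Hoxd13 midgut the hindgut differed by 0.39 ± 0.33, and by 0.94 ± 0.32 (adjusted p = 0.057) without that sample. With or without it, TPM3 reached the level of the low-count filter in every hindgut sample but not in every midgut sample. With all samples edgeR called 0 of 3 members between hindgut and midgut, with 1, TPM3, at an unadjusted p under 0.05 and 0 called by DESeq2, against 1.39% of genes called and 6.25% without overlap.

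TPM1 of this layer ranged from 100 to 873 CPM in midgut (1 to 10 counts), from 375 to 1082 CPM in Hoxd13 midgut and from 139 to 908 CPM in hindgut, with overlap between all groups. Its log2 differences were 0.48 ± 0.50, -0.06 ± 0.53 and -0.55 ± 0.48 for Hoxd13 midgut against midgut, hindgut against midgut and hindgut against Hoxd13 midgut. The first was 0.12 without midgut replicate 1, and the others were -0.79 and -1.07 without hindgut replicate 1, and none passed in any fit without 1 sample. CALD1 did not pass the low-count filter, with 1 to 10 counts per sample, and was not tested. It measured 154 to 349 CPM in midgut, 67.4 to 797 CPM in Hoxd13 midgut and 278 to 597 CPM in hindgut. At this depth 3 counts, the most that a count of 0 allows, equal 60.6 to 267 CPM, so only large differences of these genes were detectable.

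In the circumferential muscle TPM2 was also lower in Hoxd13 midgut, at 0.48-fold of midgut, and TPM1, TPM3 and CALD1 did not pass in any comparison. The layers come from the same 12 samples, so this is not an independent repeat of the other layers. TPM2 measured 1818, 1479, 1814 and 1674 CPM in midgut (1696 ± 160), 989, 591, 759 and 850 CPM in Hoxd13 midgut (797 ± 167) and 1607, 1282, 1861 and 1098 CPM in hindgut (1462 ± 339). All Hoxd13 midgut samples lay below all samples of both other groups, and hindgut overlapped midgut. The log2 difference between Hoxd13 midgut and midgut was -1.07 ± 0.21 (adjusted p = 0.0045), when 4.87% of the 349 genes tested were called and 17.2% were without overlap. The call held in 10 of 12 fits that left out a sample and failed without Hoxd13 midgut replicate 2 (adjusted p = 0.063) or replicate 3 (adjusted p = 0.061). Without the low-count filter TPM2 differed by -0.81 and did not pass (adjusted p = 0.67). Without hindgut replicate 1 the difference was -1.05 (adjusted p = 0.0046).

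Between hindgut and Hoxd13 midgut TPM2 of the circumferential muscle differed by 0.84 ± 0.21, with an adjusted p of 0.052. edgeR called 0 of 4 members, with 1 at an unadjusted p under 0.05 and 0 called by DESeq2, against 0.86% of genes called and 10% without overlap, TPM2 among the latter. Total-count scaling gave 1.23 (adjusted p = 0.019), with the median of all genes at 0.38, and leaving out hindgut replicate 1 gave 0.73 (adjusted p = 0.10). Between hindgut and midgut the difference of TPM2 was -0.23 ± 0.20 (95% interval -0.63 to 0.17), and -0.32 ± 0.23 (adjusted p = 0.46) without hindgut replicate 1. edgeR called 0 of 4 members there, with 0 at an unadjusted p under 0.05 and 0 called by DESeq2, against 0% of all genes called and 3.72% without overlap.

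TPM1 of the circumferential muscle measured 386 to 1446 CPM in midgut, 554 to 1144 CPM in Hoxd13 midgut and 883 to 1217 CPM in hindgut. TPM3 measured 495 to 1029, 603 to 923 and 509 to 843 CPM, and CALD1 308 to 533, 262 to 440 and 330 to 501 CPM, in the same order. Each of these genes overlapped between all groups. Their log2 differences from midgut lay between -0.17 and 0.08 in either group, with standard errors of 0.26 to 0.30. With hindgut replicate 1 left out, hindgut differed from midgut by 0.12 for TPM1, -0.04 for TPM3 and -0.0026 for CALD1, and from Hoxd13 midgut by 0.26, -0.13 and 0.12, with none past the threshold.

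Marker sums of the muscle layers are set beside these differences, and their part in them was not tested. The sums use total counts, unlike the TMM scaling of the single genes. Between Hoxd13 midgut and midgut, total-count scaling put the median log2 difference of all genes at -0.35 in the longitudinal and -0.34 in the circumferential muscle. With TMM these medians were 0.11 and -0.002. Lower sums in Hoxd13 midgut, and their lack of overlap, may thus partly reflect scaling, which was not tested. Fibroblast markers summed to 9292 to 12018 CPM in the longitudinal muscle of Hoxd13 midgut, against 17534 to 20959 CPM in midgut, and to 10059 to 13568 against 17054 to 23940 CPM in the circumferential muscle. Smooth muscle markers summed to 4784 to 6835 CPM in the longitudinal muscle of Hoxd13 midgut, against 6873 to 9228 CPM in midgut, and to 8479 to 14985 against 9596 to 20815 CPM in the circumferential muscle, where the ranges overlap. In the longitudinal muscle pericyte markers summed to 38.6 to 106 CPM in Hoxd13 midgut against 114 to 287 CPM in midgut, and markers of interstitial cells of Cajal to 0 to 91.7 against 115 to 280 CPM, both without overlap. Both of these lists overlapped in the circumferential muscle, where erythroid markers summed to 0 to 143 CPM in Hoxd13 midgut against 178 to 902 CPM in midgut. Few Z-linked genes could be tested in these layers, 3 in the longitudinal and 7 in the circumferential muscle. In the longitudinal muscle the median of those 3, TPM2 included, was -0.18 between Hoxd13 midgut and midgut, and TPM2 at -1.19 was the lowest, differing from it by -1.02. In the circumferential muscle the median of those 7 between Hoxd13 midgut and midgut was -1.13, and 7 of 7 lay below 0. TPM2, itself 1 of the 7, at -1.07 lay 0.06 above that median. With TPM2 included, 4 of the 7 were called lower, against 4.87% of all genes tested called in either direction. The same 7 had, between hindgut and midgut, a median of -0.81, and TPM2 at -0.23 lay 0.58 above it.

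Whether an effect differed between layers was tested as an interaction over 614 genes, in a model that held the 36 columns and a term for each sample. The difference of TPM2 between Hoxd13 midgut and midgut was not shown to be larger in muscle. It changed by -0.68 ± 0.37 from mesenchyme to longitudinal muscle (adjusted p = 0.78) and by -0.47 ± 0.25 to circumferential muscle (adjusted p = 0.75). In neither of these 2 tests did edgeR call any of the 4 members or any gene (0%), and DESeq2 called 0 members, with 0 and 1 member at an unadjusted p under 0.05. That member was TPM1, whose Hoxd13 difference changed by -0.65 ± 0.31 from mesenchyme to circumferential muscle (adjusted p = 0.75). For the hindgut difference edgeR and DESeq2 each called 0 members in either muscle layer, with 1 member at an unadjusted p under 0.05 in each and 0.163% of genes called in each. These were TPM3 in the longitudinal muscle (0.84 ± 0.37, adjusted p = 1.0, and 1.38 with an adjusted p of 0.087 without hindgut replicate 1) and CALD1 in the circumferential muscle (-0.85 ± 0.37, adjusted p = 0.97, and -1.18 with an adjusted p of 0.16 without that sample).

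Between layers of the same samples, TPM1, TPM2 and CALD1 were higher in the circumferential muscle than in the mesenchyme, by 1.81-fold, 1.88-fold and 1.99-fold averaged over groups, while TPM3 did not pass (0.98-fold). Levels here are CPM with TMM factors over all 36 columns. In the mesenchyme TPM1 averaged 500 ± 104 CPM (SD, n = 12), TPM2 683 ± 173, TPM3 734 ± 35.9 and CALD1 218 ± 85.6. In the circumferential muscle the values were 912 ± 296, 1311 ± 444, 720 ± 165 and 398 ± 84.1 CPM. The circumferential muscle exceeded the same sample's mesenchyme in 12 of 12 samples for TPM1 and TPM2, in 11 of 12 for CALD1 and in 6 of 12 for TPM3. The log2 differences were 0.86 ± 0.13 for TPM1 (adjusted p = 1.9e-08), 0.91 ± 0.10 for TPM2 (adjusted p = 2.1e-12) and 0.99 ± 0.16 for CALD1 (adjusted p = 1.4e-07). TPM3 differed by -0.03 ± 0.12 (95% interval -0.27 to 0.20). Thus 3 of 4 members were called, against 40.1% of all genes tested in this comparison. In the fits of 36 columns CALD1 did not meet the low-count filter on its mesenchyme columns alone. It entered through muscle columns as well, so its call is not free of that selection. The 3 calls held in 12 of 12 fits that left out a sample, and without hindgut replicate 1 the differences were 0.78, 0.81 and 0.82 (adjusted p up to 4.6e-05). Without the low-count filter the median of all genes moved to -0.61, and TPM1, TPM2 and CALD1 then stood at 0.31, 0.36 and 0.46 (adjusted p = 0.18, 0.065 and 0.093), above that median but no longer called, while TPM3, at -0.55 near that median, was called lower (adjusted p = 0.0041).

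TPM2 was called in each group. Between circumferential muscle and mesenchyme TPM2 differed by 1.19 ± 0.17 in midgut (adjusted p = 3.5e-08), 0.72 ± 0.19 in Hoxd13 midgut (adjusted p = 0.0039) and 0.83 ± 0.16 in hindgut (adjusted p = 5.6e-05). TPM1 differed by 1.18 ± 0.23, 0.53 ± 0.21 and 0.86 ± 0.20, and the Hoxd13 midgut value did not pass (adjusted p = 0.073). CALD1 differed by 1.501 ± 0.31, 0.84 ± 0.27 and 0.65 ± 0.24, and each passed, with the limit from the low-count filter given above. Called members numbered 3 in midgut, 2 in Hoxd13 midgut and 3 in hindgut, against 18.4%, 18.9% and 19.4% of all genes tested.

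**Figure D4:**
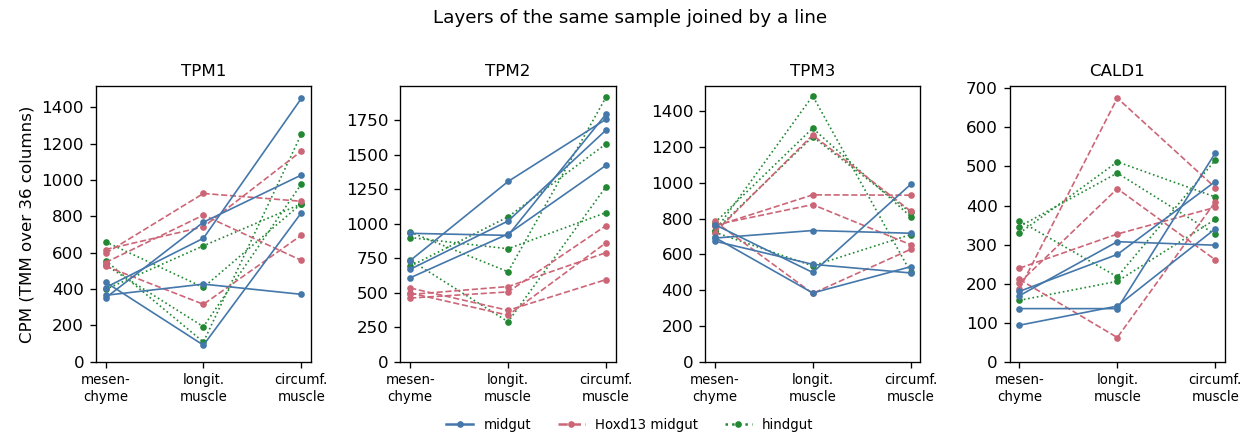
CPM with TMM factors over all 36 columns (y axis, from 0) of each gene in the 3 layers (x axis); lines join the layers of 1 sample, with solid lines for midgut, dashed for Hoxd13 midgut and dotted for hindgut. TPM1 and TPM2 rise from mesenchyme to circumferential muscle in 12 of 12 samples, and TPM3 in 6 of 12.

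The longitudinal muscle lay nearer to the mesenchyme. TPM1 was above the same sample's mesenchyme in 7 of 12 samples, TPM2 in 6, TPM3 in 7 and CALD1 in 9. CALD1 differed by 0.57 ± 0.24 (adjusted p = 0.078), and the others by 0.06 to 0.17. edgeR and DESeq2 called 0 of the 4, with 1 at an unadjusted p under 0.05, against 20.8% of genes called. Within single groups, where DESeq2 was not run, edgeR also called 0 of 4, against 5.54% of genes in midgut, 7.82% in Hoxd13 midgut and 6.51% in hindgut, with 1, 1 and 0 members at an unadjusted p under 0.05. Between the muscle layers 2 of 4 members were called higher in the circumferential muscle, against 5.86% of genes called. TPM2 was higher by 0.78 ± 0.15 (adjusted p = 7.5e-05, higher in 12 of 12 samples) and TPM1 by 0.68 ± 0.19 (adjusted p = 0.013, higher in 9 of 12), and without hindgut replicate 1 by 0.85 (adjusted p = 5.7e-05) and 0.94 (adjusted p = 0.00096). CALD1 differed by 0.43 ± 0.24 (adjusted p = 0.39) and TPM3 by -0.10 ± 0.17 (adjusted p = 0.85).

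The thin filament list was also counted between layers. Of 19 listed genes tested between circumferential muscle and mesenchyme, 13 were higher and 2 lower in the muscle, where 40.1% of all genes were called, with a median log2 difference of 0.51 against 0.01 for all genes. TAGLN was higher by 1.2, MYH11, the smooth muscle myosin heavy chain, by 1.21, ACTG2 by 1.07 and MYLK, the myosin light chain kinase, by 1.10, with adjusted p from 1.0e-19 to 7.2e-17. The 2 lower genes, named after their values were seen, were MYH9 and the cytoplasmic actin gene ACTG1, with log2 differences of -0.82 and -0.27. Of the 4 genes tested from the SRF list, 3 were higher: CNN1, also in the first list, by 1.33, the focal adhesion gene VCL by 0.73 and MYOCD, the SRF cofactor myocardin, by 0.74.

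Ordered by mean level over the 9 combinations of group and layer, TPM2 ran from 1664 ± 167 CPM (SD, n = 4) in midgut circumferential muscle, over 1462 ± 367 in that of hindgut and 1042 ± 182 in midgut longitudinal muscle, to 440 ± 101 CPM in Hoxd13 midgut longitudinal muscle. TPM1 ran from 993 ± 181 CPM in hindgut circumferential muscle to 337 ± 237 CPM in hindgut longitudinal muscle. TPM3 ran from 1145 ± 418 CPM in hindgut longitudinal muscle to 540 ± 145 CPM in that of midgut. CALD1 ran from 409 ± 109 CPM in midgut circumferential muscle to 145 ± 38.9 CPM in midgut mesenchyme. For TPM1, TPM2 and TPM3 the samples of all 8 neighbouring pairs in this order overlapped. For CALD1 7 of 8 pairs overlapped, and the exception was midgut mesenchyme, at 93.6 to 180 CPM, below Hoxd13 midgut mesenchyme, at 186 to 240 CPM.

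A share within 1 library does not depend on its scaling, so the counts of TPM2 were also taken as a share of TPM1, TPM2 and TPM3 counts together. TPM2 is Z-linked and TPM1 and TPM3 are autosomal. Sex and Hoxd13 therefore cannot be told apart in this share either, between Hoxd13 midgut and midgut. In the mesenchyme this share was 45.2, 35.0, 41.2 and 38.2% in midgut replicates 1 to 4, 27.0, 29.1, 26.1 and 26.5% in Hoxd13 midgut and 38.2, 36.9, 41.3 and 39.3% in hindgut. All Hoxd13 midgut samples lay below all others, and hindgut replicate 1 lay among the other hindgut samples. The means were 39.9 ± 4.35, 27.2 ± 1.33 and 38.9 ± 1.90% (SD, n = 4). The share of TPM1 was 19.8 to 23.3% in midgut, 29.7 to 32.9% in Hoxd13 midgut and 22.0 to 28.8% in hindgut, again with Hoxd13 midgut apart from both. The share of TPM3 was 33.5 to 44.0% in midgut, 40.6 to 42.2% in Hoxd13 midgut and 31.8 to 39.9% in hindgut, so hindgut lay below Hoxd13 midgut and midgut overlapped both. The shares of a sample add up to a whole, so they are not independent of each other.

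In the circumferential muscle TPM2 took 46.3 to 53.8% of tropomyosin counts in midgut, 28.6 to 39.1% in Hoxd13 midgut and 41.2 to 50% in hindgut. Hoxd13 midgut lay below both there too, in the same samples as in the mesenchyme. The share was above that of the same sample's mesenchyme in 11 of 12 samples. In the longitudinal muscle it was 45.5 to 53.1% in midgut, 17.2 to 29.4% in Hoxd13 midgut and 16.7 to 47.2% in hindgut, on 18 to 108 tropomyosin counts per sample. The 95% binomial interval (Clopper-Pearson, counting error only) of its lowest hindgut sample, 3 of 18 counts, was 3.58 to 41.4%. These shares compare counts of genes of unequal length, so they describe differences between samples and not which tropomyosin was most abundant. No test was made on them. TPM4, another tropomyosin gene, had 11, 15 and 28 counts over the 4 mesenchyme samples of midgut, Hoxd13 midgut and hindgut and was too low to add.

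**Figure D5:**
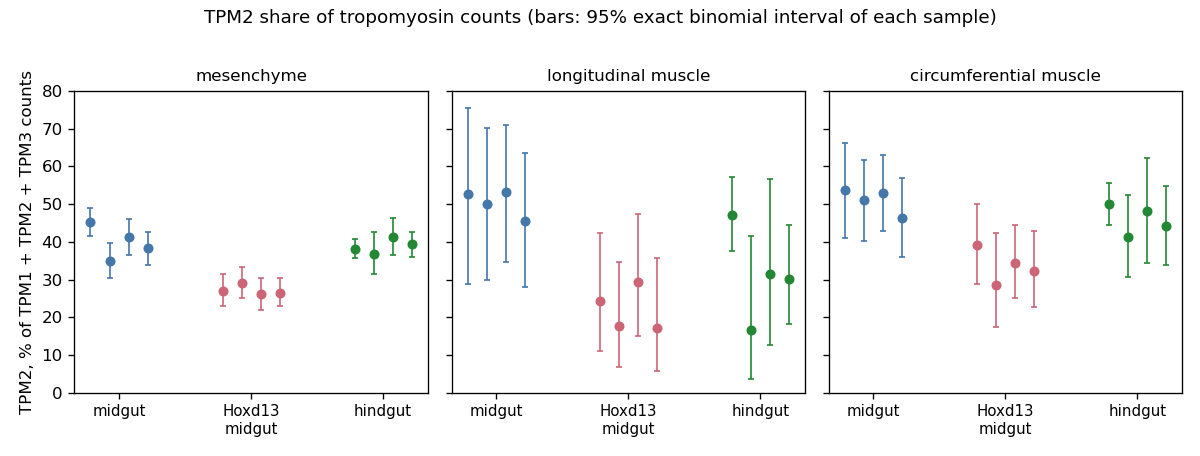
Counts of TPM2 as a percentage of TPM1, TPM2 and TPM3 counts (y axis, from 0) in each sample of the 3 groups (x axis) and layers (panels); bars are 95% exact binomial intervals of a sample. In the mesenchyme the 4 Hoxd13 midgut samples lie between 26.1 and 29.1%, below the 35.0 to 45.2% of the other 8.

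Across the 9 group and layer means, the genes most like each member were named among 209 genes with at least 20 counts in each sum, by Pearson's r of log2 CPM. This describes 9 points that share libraries and differ in depth. For TPM1 they were MYL9 (r = 0.97), TAGLN (0.91), UBTF (0.90), MYLK (0.90) and COL4A1 (0.85). For CALD1 they were MYL6 (0.88), TAGLN (0.88), NFIA (0.88), an Ensembl gene without a symbol (0.86) and TPM1 (0.86). For TPM2 they were LAMB1 (0.94), PDLIM7 (0.89), ACTG2 (0.86), SPARC (0.86) and PRRC2C (0.86). For TPM3 they were KIRREL1 (0.82), TUBB (0.78), an Ensembl gene without a symbol (0.77), COL5A1 (0.77) and GAPDH (0.67). Between members, r was 0.86 for TPM1 with CALD1, 0.40 for TPM1 with TPM2, 0.01 for TPM1 with TPM3 and -0.45 for TPM2 with TPM3.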

How the data were processed

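Light-seq counts were deposited for 12 samples by 3 layers. The deposited values are raw counts in whole numbers, with totals that differ between columns. The submitters' processing notes name the build GRCg6a and the tools STAR, featureCounts, UMI-tools, DESeq2 and MultiQC, with no settings. The sources used here do not say if reads or unique molecules were counted. Depth per sample was 210803 to 903222 counts in the mesenchyme, 11233 to 49535 in the longitudinal and 19920 to 112252 in the circumferential muscle. Intervals of shares, and floors, cover counting error only.

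Tests used edgeR 4.0.16 in R 4.3.3 (quasi-likelihood, TMM, genes kept at a count of 10 in enough columns and 15 in total), two-sided, with Benjamini-Hochberg adjustment over all genes tested and a threshold of 0.05. The 12 columns of a layer shared a spread. Layers and interactions were fitted on 36 columns with the sample as a block. Standard errors are the log2 difference divided by the square root of F. Single-gene CPM use TMM, sums over markers use total counts. DESeq2 1.42.0, other scalings, no filter, the replicate number as a block and samples left out in turn were tried, and the scripts were tested on simulated data. In each layer, 18 pairs of replicates were compared by chi-square, and 0 agreed within sampling noise. Chromosomes came from a RefSeq table of assembly GRCg7b, used for names only. Members and gene lists were chosen with earlier results of these data known. All 4 members were named in every comparison of groups within a layer and in the layer differences averaged over groups. For interactions and for layer differences within single groups only some or none were named. Of each list, up to 6 genes past the threshold with the smallest p were named, and of each member the 5 genes most like it.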

Additional observations from a re-analysis of the deposited data

Results flagged for a closer look

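TPM3 of the longitudinal muscle measured 761 CPM in hindgut replicate 1, far below the 1552, 1666 and 1594 CPM of the other hindgut samples. Its gap to the nearest of them, as a share of the range of the group, exceeded Dixon's 95% critical value of 0.829 for 4 samples. It was 1 flag among 36 groups of 4 values, and chance flags about 1 in 20. The same sample stood apart in its W-linked counts (37.6 CPM in the mesenchyme, against 104 to 156), its epithelial markers and its depth. Whether these bear on its TPM3 level was not tested.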

How the results depend on the processing

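Over 61 member values, the 380 fits other than those leaving out a sample kept direction and side of the threshold in 341, lost the call in 9, gained it in 7 and reversed in 23. Of 732 fits without 1 sample, 661 kept both, 19 lost the call, 8 gained it and 44 reversed. Causes were not tested. The number of members called moved as follows. In the mesenchyme it was 0 between hindgut and midgut when only the 2 groups compared were fitted, and for Hoxd13 midgut against midgut it was 0 in DESeq2 and 3 with only those groups. In these fits 2 of 3537, 63 of 4176 and 365 of 3602 genes were called. Between Hoxd13 midgut and midgut the number of members was 0 in either muscle layer without the low-count filter. There 11 of 10387 genes were called in the longitudinal and 28 of 12365 in the circumferential muscle. Between hindgut and Hoxd13 midgut the number of members was 1 in either with total-count scaling, with 33 of 144 and 29 of 349 genes called. Without the filter it was 3 (TPM1, TPM2 and TPM3, lower) between longitudinal muscle and mesenchyme and 1 (TPM3, lower) between circumferential muscle and mesenchyme, where the median of all genes stood at -1.01 and -0.61. In these fits 2630 and 1654 of 17138 genes were called, 10 and 54 of them higher.

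A pairing of the samples by replicate number was not shown. The correlations of same-numbered samples' deviations ran from -0.27 to 0.09 in the mesenchyme and from -0.25 to 0.21 in the muscle layers. No comparison had all 4 above 0.1, but 4 correlations per comparison could miss a weak pairing. With the replicate number as a block, 0 members were called between Hoxd13 midgut and midgut in the mesenchyme (TPM1 0.59, adjusted p = 0.056), and 1 (TPM2 0.84, adjusted p = 0.039) between hindgut and Hoxd13 midgut in the circumferential muscle. In these fits 79 of 4176 and 8 of 349 genes were called. The block moved the count of all called genes from 62 to 143 between hindgut and midgut in the mesenchyme.

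Directions reversed in values that had not passed. With total-count scaling, TPM3 stood at -0.051 (Hoxd13 midgut against midgut, mesenchyme), 0.044 (hindgut against midgut), -0.25 (Hoxd13 midgut against midgut) and 0.30 (hindgut against Hoxd13 midgut) in the circumferential muscle, and at -0.13 for the change of the Hoxd13 effect there. TPM1 stood at 0.11 between hindgut and Hoxd13 midgut in the mesenchyme. Without the low-count filter, between longitudinal muscle and mesenchyme, TPM1 stood at -0.75, TPM2 at -0.79, TPM3 at -0.83 and CALD1 at -0.34, and TPM3 at 0.28 between the muscle layers. In the circumferential muscle without the filter, hindgut against midgut gave 0.24 for TPM3 and 0.20 for CALD1, and Hoxd13 midgut against midgut gave 0.10 for TPM1 and 0.12 for CALD1. In the longitudinal muscle it gave 0.027 for TPM1 of hindgut against midgut and 0.11 for the change of the Hoxd13 effect on TPM1. TPM3 of hindgut against midgut in the circumferential muscle, near 0, turned to 0.015 without mitochondrial genes and 0.024 with only those groups. The change of that effect from the mesenchyme turned to 0.13 without the filter, 0.035 without mitochondrial genes, 0.021 with RLE factors and 0.034 in DESeq2.

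Leaving out 1 sample at a time, members called ranged from 0 to 3 (hindgut and Hoxd13 midgut, each against midgut) and 1 to 2 (hindgut against Hoxd13 midgut) in the mesenchyme, from 0 to 1 in each comparison of the longitudinal muscle, for Hoxd13 midgut against midgut in the circumferential muscle, and for longitudinal muscle against mesenchyme. The highest numbers in the mesenchyme were reached without hindgut replicate 1. In that fit 19.6%, 7.52% and 14.9% of genes were called, for hindgut and Hoxd13 midgut against midgut and hindgut against Hoxd13 midgut. In the longitudinal muscle without that sample the shares were 9.3%, 19.4% and 10.9%, in the same order. In the mesenchyme, TPM1 ranged from -0.19 to 0.14 and TPM3 from -0.032 to 0.063 between hindgut and Hoxd13 midgut. TPM1 of the longitudinal muscle ranged from -0.79 to 0.10 between hindgut and midgut. In the circumferential muscle the ranges for hindgut against midgut were -0.20 to 0.40 (TPM1), -0.15 to 0.31 (TPM3) and -0.22 to 0.14 (CALD1), for Hoxd13 midgut against midgut -0.41 to 0.18 (TPM1), -0.031 to 0.41 (TPM3) and -0.27 to 0.075 (CALD1), and for hindgut against Hoxd13 midgut -0.20 to 0.014 (TPM3) and -0.10 to 0.14 (CALD1). Between longitudinal muscle and mesenchyme they were -0.16 to 0.26 (TPM1), -0.041 to 0.17 (TPM2) and -0.084 to 0.20 (TPM3). TPM3 ranged from -0.10 to 0.023 between circumferential muscle and mesenchyme and from -0.30 to 0.023 between the muscle layers. Changes of the hindgut effect in the circumferential muscle ranged from -0.62 to 0.032 (TPM1) and -0.14 to 0.19 (TPM3), and changes of the Hoxd13 effect from -0.42 to 0.27 (TPM1) and -0.23 to 0.63 (CALD1) in the longitudinal and -0.090 to 0.24 (TPM3) in the circumferential muscle.

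Counts of all called genes also moved by over 1.5 times in the mesenchyme. For hindgut against midgut the count of 62 became 231 without the filter and 2 with only those groups, for Hoxd13 midgut against midgut 111 became 172, 63 (DESeq2) and 365 (only those groups), and for hindgut against Hoxd13 midgut 158 became 89 (DESeq2) and 71 (only those groups). With total-count scaling 22 of 92 calls between Hoxd13 midgut and midgut were higher, against 55 of 111. In the muscle layers 1 to 51 counts of a tropomyosin per longitudinal sample limit what could be detected.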
